A study of Mus musculus with 4 samples.

Results

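The genes described here make eicosanoids, the short-lived lipid mediators formed from arachidonic acid. The 10 genes were Ptgs1, Ptgs2, Ptges, Hpgds, Tbxas1 and Hpgd of the prostanoid branch and Alox5, Alox5ap, Lta4h and Ltc4s of the leukotriene branch. They were taken by symbol from 24346 genes listed in liver RNA sequencing, and all 10 were found. The list was chosen by pathway role with the 7KC-against-control differences of these same libraries already known, so its values are a description and its fitted p-values are no independent test. All mice were male C57BL/6, 8 weeks old at the start, with no gene altered, and all were given a NASH diet, rich in fat, cholesterol and sucrose and with added bile salt, for 3 weeks. In the 7KC group (n = 2 libraries) the diet also held 7-ketocholesterol (7KC), an oxidized form of cholesterol, and in the control group (n = 2 libraries) it did not. No group on normal chow was analysed here, so every value is from a liver on that diet. The labels do not say that each library came from a separate mouse, and p-values then measure only the spread between these libraries.

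Arachidonic acid is cut from membrane phospholipids by phospholipase A2. The cyclooxygenases, encoded by Ptgs1 and Ptgs2, turn it into prostaglandin H2, which terminal synthases convert to prostaglandins and thromboxane. Alternatively 5-lipoxygenase (Alox5), helped by its activating protein (Alox5ap), turns it into leukotriene A4, from which Lta4h makes leukotriene B4 and Ltc4s makes leukotriene C4. In liver these pathways are known mainly from Kupffer cells and other leukocytes, whereas Hpgd, which inactivates prostaglandins, has a broader distribution.

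Values are FPKM, read counts scaled to transcript length and library depth, which allow levels of different genes to be compared per length. From the steps between low values, the libraries held about 17000000 and 13700000 mapped reads in the control group and 13600000 and 13700000 in the 7KC group. The scarcer members rested on few reads at this depth, and those reads are given with them. The hepatocyte gene Alb, for albumin, was at 18988 to 41547 FPKM in the 4 libraries, so the liver label was met. In the control group the order of mean levels was Hpgd (71.4 FPKM), Lta4h (16.2), Alox5ap (8.16), Ptgs1 (5.38), Tbxas1 (2.38), Ltc4s (1.10), Hpgds (0.797), Ptges (0.202), Ptgs2 (0.141) and Alox5 (0.0248). Within that order only Ptges and Ptgs2 had overlapping libraries. In the 7KC group the order was Hpgd, Alox5ap, Lta4h, Tbxas1, Ptgs1, Ltc4s, Ptgs2, Hpgds, Ptges and Alox5, and the libraries of 5 neighbouring pairs overlapped: Alox5ap and Lta4h, Tbxas1 and Ptgs1, Ltc4s and Ptgs2, Ptgs2 and Hpgds, and Hpgds and Ptges.

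**Figure D1:**
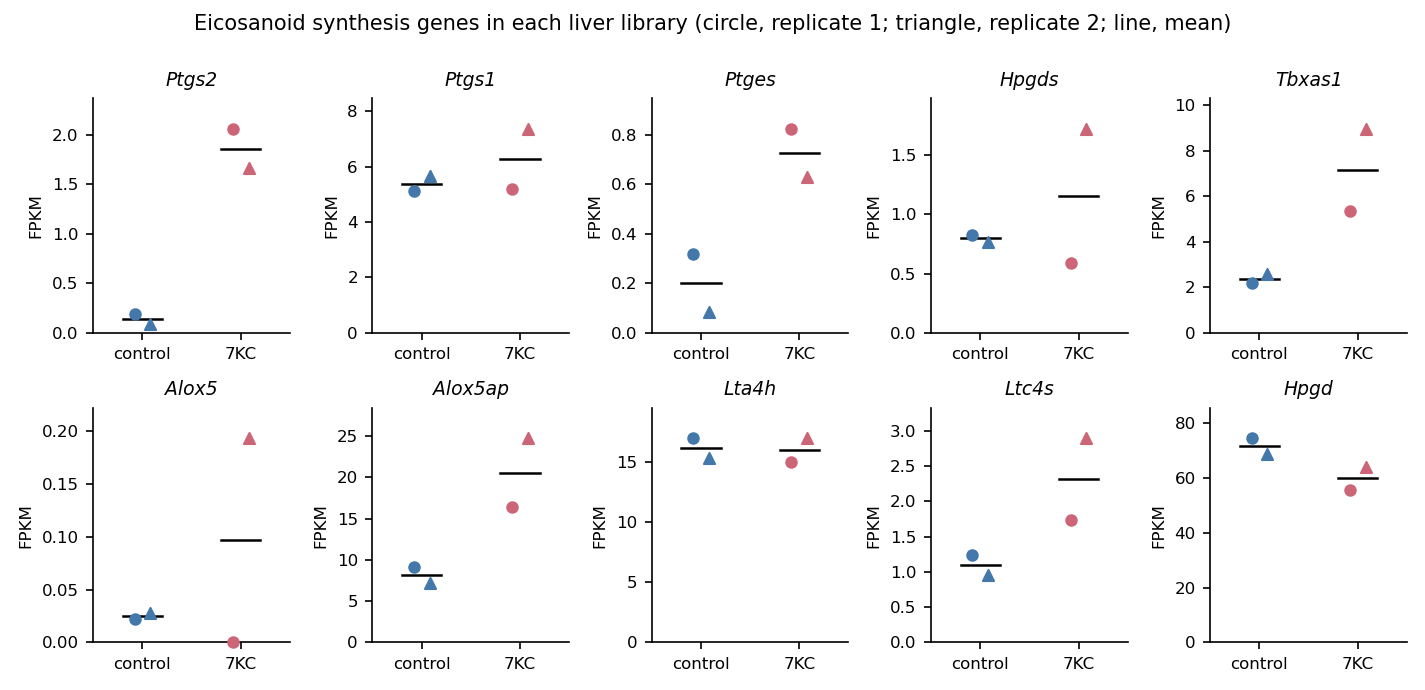
FPKM (linear axes from 0) of the 10 genes in the 4 libraries, with the 2 control libraries in blue, the 2 7KC libraries in red, replicate 1 as a circle, replicate 2 as a triangle and the group mean as a line. The 7KC libraries of Ptgs2, at 2.06 and 1.66 FPKM, stand above control libraries at 0.191 and 0.0913 FPKM, while those of Lta4h and Ptgs1 overlap.

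Ptgs2 encodes cyclooxygenase-2, the inducible cyclooxygenase of inflamed tissue. It was at 0.191 and 0.0913 FPKM in the controls, against 2.06 and 1.66 FPKM under 7KC. The 7KC values thus stood well apart from the control values, which lay near the limit of detection. The FPKM values corresponded to 13 and 5 reads in the controls and 112 and 91 reads under 7KC. The exact Poisson 95% intervals, which cover counting error only, were 6.92 to 22.2 and 1.62 to 11.7 reads for the control libraries and 92.2 to 135 and 73.3 to 112 reads for the 7KC libraries. The group means were 0.141 ± 0.0708 FPKM (SD, n = 2) and 1.86 ± 0.282 FPKM (SD, n = 2), a ratio of 13.2. Since the control values rested on few reads, leaving out control replicate 1 gave a ratio of 20.4 and leaving out control replicate 2 one of 9.73. On the log2(FPKM + 0.5) scale used for the fit, which compresses such a low gene, Ptgs2 rose by 1.88 (SE 0.21, limma adjusted p 0.0473 over 12299 genes). The fit took genes averaging 0.5 FPKM or more, and Ptgs2 entered it only through its 7KC libraries. Without that filter its adjusted p was 0.119. The direction held in every alternative tried, but the call was lost in 8 of 13 of them, among these the removal of control replicate 2 (adjusted p 0.0967), 7KC replicate 1 (0.159) or 7KC replicate 2 (0.242). The log2 change was 1.32 with a pseudocount of 1 FPKM and 3.05 with 0.1 FPKM.

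Ptgs1 encodes cyclooxygenase-1, the constitutive form that also supplies platelets. It was at 5.11 and 5.66 FPKM in the controls, against 5.19 and 7.37 FPKM under 7KC. The groups overlapped, since 7KC replicate 1 lay between the control libraries. The log2 change was 0.19 (SE 0.19, limma adjusted p 0.639). Within a library Ptgs2 was 3.75% and 1.61% of Ptgs1 in the control group and 39.8% and 22.6% in the 7KC group, so Ptgs1 stayed the more abundant cyclooxygenase transcript in all 4 libraries.

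Ptgs2 (chromosome 1, 150100031 to 150108227, plus strand, mm10) and Ptgs1 (chromosome 2, 36230426 to 36252272, plus strand) carry different letters before their starts. The bases before the RefSeq start (build GRCm38.p6, the same assembly as mm10) are shown for both cyclooxygenases, because 1 was called higher and the other overlapped between groups, and for Tbxas1, which had the smallest p-value of the tested prostanoid synthases. Capitals mark matches on either strand to 7 motifs: TATA box (TATAAA), C/EBP (TTNNGNAA), CRE-like (ACGTCA), E-box (CACGTG), PU.1 (GAGGAAG), GC box (GGGCGG) and the 10-letter kappaB motif.
Ptgs2, chr1:150099781-150100030, plus strand: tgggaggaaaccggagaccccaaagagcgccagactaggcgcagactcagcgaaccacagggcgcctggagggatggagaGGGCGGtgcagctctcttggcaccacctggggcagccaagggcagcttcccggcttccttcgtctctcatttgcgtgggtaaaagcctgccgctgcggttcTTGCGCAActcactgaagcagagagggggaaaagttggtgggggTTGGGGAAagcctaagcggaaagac
Ptgs2, first 30 bases from the start: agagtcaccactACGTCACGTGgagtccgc
Ptgs1, chr2:36230176-36230425, plus strand: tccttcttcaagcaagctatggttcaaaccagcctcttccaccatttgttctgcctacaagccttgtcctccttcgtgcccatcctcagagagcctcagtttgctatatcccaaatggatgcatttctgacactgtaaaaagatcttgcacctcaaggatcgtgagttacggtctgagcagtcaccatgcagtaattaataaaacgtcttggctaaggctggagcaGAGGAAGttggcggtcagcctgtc
Tbxas1, chr6:38918736-38918985, plus strand: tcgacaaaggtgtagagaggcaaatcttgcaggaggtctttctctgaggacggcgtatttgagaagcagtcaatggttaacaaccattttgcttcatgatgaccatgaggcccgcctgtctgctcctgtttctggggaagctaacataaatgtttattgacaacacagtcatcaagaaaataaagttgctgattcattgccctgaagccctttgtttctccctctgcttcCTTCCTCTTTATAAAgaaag

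RefSeq promoter windows, from 250 bases before to 50 bases after the start, were matched by symbol for 9 of the 10 genes. For Tbxas1 and Ptges the bases before the RefSeq start lay inside the annotated span of the gene. The outermost annotated starts of these genes were not scanned. In Ptgs2 the letters held 2 C/EBP matches, 69 to 62 and 25 to 18 bases before the start, and a GC box 170 to 165 bases before it. A CRE-like match at bases 13 to 18 after the start shared letters with an E-box at bases 17 to 22. Of 32851 promoter windows of the same length, 40.7% held a C/EBP match, 7.51% a CRE-like match and 7.15% an E-box, and Ptgs2 was the only one of the 9 genes with either of the last 2. The PU.1 letters, named for a transcription factor of myeloid cells, were in the windows of Ptgs1, Hpgds, Tbxas1 and Ltc4s, 4 of the 9, and in 13.6% of all windows. TATA letters were in Tbxas1 and Hpgd (13.6% of all windows) and GC boxes in Ptgs2, Ptges, Hpgd and Alox5 (35.7%). None of the 9 held the kappaB motif inside its window, and 8.46% of all windows did. Bases farther from the start were not scanned. A match describes letters only and is no measured binding site.

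Downstream of the cyclooxygenases, Tbxas1 encodes thromboxane A synthase, which makes the vasoconstrictor and platelet activator thromboxane A2. Tbxas1 (chromosome 6, 38875404 to 39084585, plus strand) stood at 2.20 and 2.57 FPKM in the controls, against 5.34 and 8.97 FPKM under 7KC. The 7KC values exceeded both control values, with replicate 2 the higher of the 7KC pair. The ratio of the means was 3.00 and the log2 change 1.37 (SE 0.25, limma adjusted p 0.0826), which did not pass the threshold of 0.05 over all genes.

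Ptges encodes the inducible microsomal prostaglandin E synthase, which works in tandem with cyclooxygenase-2. It was at 0.320 and 0.0837 FPKM in the controls, against 0.823 and 0.628 FPKM under 7KC, or 19 and 4 reads against 39 and 30 reads. The libraries did not overlap, but the control values lay far apart and 1 of them rested on 4 reads. With a mean of 0.464 FPKM Ptges (chromosome 2, 30889471 to 30929863, minus strand) fell just below the filter and was not tested. Without a filter its log2 change was 0.82 (limma adjusted p 0.223). Ptgs2 was 59.8% and 109% of Ptges in the controls, against 251% and 265% under 7KC.

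Hpgds encodes hematopoietic prostaglandin D synthase of mast cells, macrophages and T cells. Hpgds (chromosome 6, 65117293 to 65144908, minus strand) stood at 0.826 and 0.769 FPKM in the controls, against 0.587 and 1.72 FPKM under 7KC, or 44, 33, 25 and 74 reads. The 7KC libraries lay on either side of the control libraries. The log2 change of 0.26 (SE 0.36, limma adjusted p 0.742) rested on 7KC replicate 2, without which it was -0.25.

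Hpgd encodes 15-hydroxyprostaglandin dehydrogenase, which starts the breakdown of prostaglandins. It was the most abundant of the 10 genes in every library, at 74.3 and 68.5 FPKM in the control group and 55.7 and 63.8 FPKM in the 7KC group. Both 7KC libraries of Hpgd (chromosome 8, 56294585 to 56321043, plus strand) lay below both control libraries, and the ratio of the means was 0.837. The log2 change of -0.26 (SE 0.12, limma adjusted p 0.352) did not pass. After rescaling each library to the same summed FPKM it was -0.05 (adjusted p 0.872), and the groups overlapped, with 108 and 102 TPM against 89.8 and 114 TPM (FPKM rescaled to a common total).

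On the leukotriene branch, the 5-lipoxygenase transcript itself was at the edge of detection while that of its helper protein was not. Alox5 (chromosome 6, 116410077 to 116461178, minus strand) stood at 0.0222 and 0.0275 FPKM in the control libraries, 1 read in each. In the 7KC libraries it was listed at 0 in replicate 1 and stood at 0.193 FPKM, 7 reads, in replicate 2. The exact Poisson 95% interval of those 7 reads was 2.81 to 14.4, and that of 1 read reached up to 5.57, so no difference could be seen with so few reads. Alox5 was not tested.

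Alox5ap encodes the 5-lipoxygenase activating protein (FLAP), which presents arachidonic acid to the enzyme. It was at 9.12 and 7.19 FPKM in the controls, against 16.4 and 24.7 FPKM under 7KC. Alox5ap (chromosome 5, 149264767 to 149288153, plus strand) had 7KC values that exceeded both control values. The ratio of the means was 2.52 and the log2 change 1.26 (SE 0.23, limma adjusted p 0.0796), short of the threshold. Rescaling each library to the same summed FPKM brought it past the threshold (log2 change 1.46, adjusted p 0.0487), a scaling that moved the median of all genes from -0.03 to 0.16.

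Lta4h encodes leukotriene A4 hydrolase. Lta4h (chromosome 10, 93453411 to 93484875, plus strand) stood at 17.0 and 15.4 FPKM in the controls, against 15.0 and 17.0 FPKM under 7KC. The groups overlapped and their means were 16.2 ± 1.14 and 16.0 ± 1.43 FPKM (SD, n = 2 each). The log2 change was -0.02 (SE 0.12, limma adjusted p 0.95).

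Ltc4s encodes leukotriene C4 synthase, the entry to the cysteinyl leukotrienes. Ltc4s (chromosome 11, 50236461 to 50238616, minus strand) stood at 1.24 and 0.961 FPKM in the controls, against 1.74 and 2.89 FPKM under 7KC. Its longest transcript has only 716 bases, so few reads stood behind these values. The steps between low values gave about 8, 5, 9 and 15 reads. The length of the longest transcript alone gave 10.9, 6.82, 12.3 and 20.5. The 7KC libraries lay above the control libraries, but the interval of 9 reads in 7KC replicate 1 (4.12 to 17.1) covered the 8 reads of control replicate 1. Those reads are not scaled to depth, and control replicate 1 was the deeper library (about 17000000 against 13600000 mapped reads). The log2 change was 0.79 (SE 0.25, limma adjusted p 0.206).

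**Figure D2:**
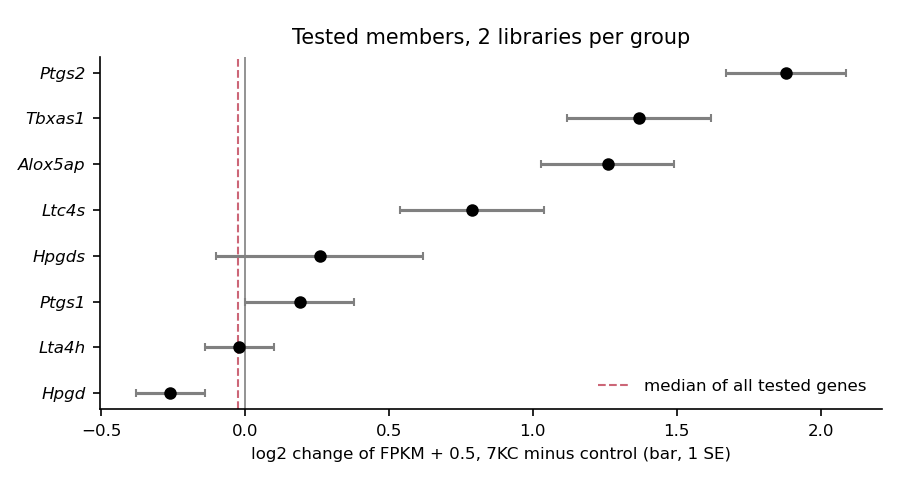
Log2 change of FPKM + 0.5 in the 7KC group relative to the control group (horizontal axis) for the 8 members with a mean of at least 0.5 FPKM, with 1 SE as the bar and n = 2 libraries per group. The values run from -0.26 for Hpgd to 1.88 for Ptgs2, and the dashed line marks the median of all tested genes at -0.03.

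Of the 10 genes, 8 were tested. Of these, 1 gene, Ptgs2, was called higher at an adjusted p under 0.05, where 0.480% of the 12299 tested genes were, and none was called lower, where 0.0244% were. At an unadjusted limma p under 0.05, 4 of the 8 were higher (12.0% of all tested genes) and 0 were lower (5.81%). The 7KC values exceeded all control values in 4 of the 8, namely Ptgs2, Tbxas1, Alox5ap and Ltc4s (25.1% of all tested genes), and lay below them in 1, Hpgd (27.4%). The median log2 change of the 8 was 0.53, against -0.03 over all tested genes. These counts describe a list chosen with the contrast in view, and the called gene was admitted to the fit by its 7KC values alone, so nothing is read from them. For a single gene an exact permutation test of 2 libraries against 2 cannot give a 2-sided p below 0.333.

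Bulk liver RNA cannot tell more cells of a type from more RNA per cell, and levels of leukocyte markers differed between the same groups, although no marker of any cell type list passed the adjusted threshold. All 6 leukocyte markers had both 7KC libraries above both control libraries, and their summed level was 138 to 234 FPKM in the control group and 455 to 507 FPKM in the 7KC group. The same held for 5 of 7 macrophage markers, with sums of 418 to 640 and 1146 to 1838 FPKM. For monocytes and recruited macrophages it held for 6 of 9 markers, with sums of 103 to 165 and 378 to 586 FPKM, and for T and NK cells for all 6 tested, with sums of 11.3 to 15.6 and 34.9 to 40.2 FPKM. Among the latter, Klrb1c averaged 0.347 FPKM in the controls and reached the filter only through its 7KC values. Resident Kupffer cell markers were at 306 to 308 FPKM in the control group and 352 to 525 FPKM in the 7KC group, with 3 of 7 above and 2 of 7 below the control libraries. The 7 hepatocyte markers summed to 57196 to 68655 and 36615 to 49216 FPKM, with 4 of 7 below the control libraries. Of all tested genes, 25.1% had both 7KC libraries above and 27.4% below both control libraries.

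Mast cell and eosinophil transcripts, from cell types known for these enzymes, were scarce. Of 9 mast cell and basophil markers 7 were listed at 0 in at least 1 library, and the defining proteases Mcpt4 and Tpsb2 were at 0 in all 4. The sum of that list was 4.30 to 5.67 FPKM in the control group and 5.85 to 7.22 FPKM in the 7KC group, most of it from Hdc and Kit. Eosinophil markers summed to no more than 0.583 FPKM in any library, and the eosinophil peroxidase gene Epx was at 0 in all 4. Neutrophil markers were at 20.3 to 35.8 and 40.7 to 43.6 FPKM, and platelet markers at 5.03 to 7.30 and 5.84 to 7.00 FPKM in the control and 7KC groups. Dendritic cell markers summed to 4.64 to 5.65 and 8.01 to 8.16 FPKM, and B cell markers to 3.06 to 13.8 and 6.97 to 7.98 FPKM. Endothelial cell markers were at 96.4 to 115 and 89.3 to 129 FPKM, stellate cell markers at 32.0 to 33.2 and 25.8 to 32.8 FPKM, and cholangiocyte markers at 57.7 to 89.4 and 168 to 368 FPKM. Nearly all of the cholangiocyte sum was Spp1, which is also in the list of monocytes and recruited macrophages, and the other 4 markers summed to 3.67 to 3.73 and 3.04 to 4.66 FPKM.

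The members were therefore also set against Ptprc, the gene for the pan-leukocyte antigen CD45, in the same library. Ptprc was at 8.47 and 5.65 FPKM in the controls, against 15.5 and 20.6 FPKM under 7KC. Ptgs2 was 2.26% and 1.62% of Ptprc in the control group and 13.3% and 8.07% in the 7KC group. These values remained apart, with a ratio of means of 5.51. Alox5ap, in contrast, was 108% and 127% of Ptprc in the control group and 105% and 120% in the 7KC group, and Tbxas1 was 26% and 45.4% against 34.3% and 43.5%. Both overlapped between groups on this scale. Ptges also overlapped, at 3.78% and 1.48% against 5.29% and 3.05%, whereas Ltc4s lay lower in the 7KC group, at 14.6% and 17.0% against 11.2% and 14.0%. Ptgs1 was 60.3% and 100% of Ptprc in the control group and 33.4% and 35.8% in the 7KC group. Lta4h (201% and 273% against 96.6% and 82.7%) and Hpgd (876% and 1213% against 358% and 309%) also lay lower in the 7KC group. So did Hpgds, at 9.75% and 13.6% against 3.78% and 8.37%, while Alox5 overlapped. The ratio of means in FPKM was 1.17 for Ptgs1, 0.987 for Lta4h, 0.837 for Hpgd and 1.45 for Hpgds, against 2.56 for Ptprc. The lower shares of these genes were therefore largely fixed by the higher Ptprc values.

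The choice of the reference gene moved some of these comparisons. Relative to the sum of the 7 macrophage markers, Ptgs2 was again separate (0.0299% and 0.0219% against 0.180% and 0.0906%) and Alox5ap and Tbxas1 again overlapped. That sum was mostly Lyz2. Without Lyz2, Tbxas1 was 2.17% and 2.64% of the sum in the control group and 3.54% and 3.52% in the 7KC group, and Alox5ap was 9% and 7.40% against 10.9% and 9.71%, both separate. Clec4f, 1 of the 7 resident Kupffer cell markers, overlapped between groups (log2 change -0.03, SE 0.18, limma adjusted p 0.94). Relative to Clec4f, Ptgs2, Ptges, Tbxas1, Alox5ap, Ltc4s and Ptgs1 all lay higher in the 7KC group. Since Clec4f hardly differed, these shares nearly repeat the FPKM values, with a ratio of means of 3.00 for Tbxas1 either way. Of the other Kupffer cell markers, Timd4, Marco and Cd5l lay above the control libraries, Vsig4 and Cd163 below them, and Folr2 overlapped. The 5 references tried were Ptprc, the macrophage sum with and without Lyz2, Clec4f and the macrophage receptor gene Csf1r. Ptgs2 lay higher in the 7KC group relative to each. The ratio of means was 13.2 for Ptgs2, against 2.56 for Ptprc, 1.78 for Csf1r and 0.984 for Clec4f. That outcome was therefore largely fixed by the FPKM values. Csf1r is also part of both macrophage sums, so the references are not separate checks.

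**Figure D3:**
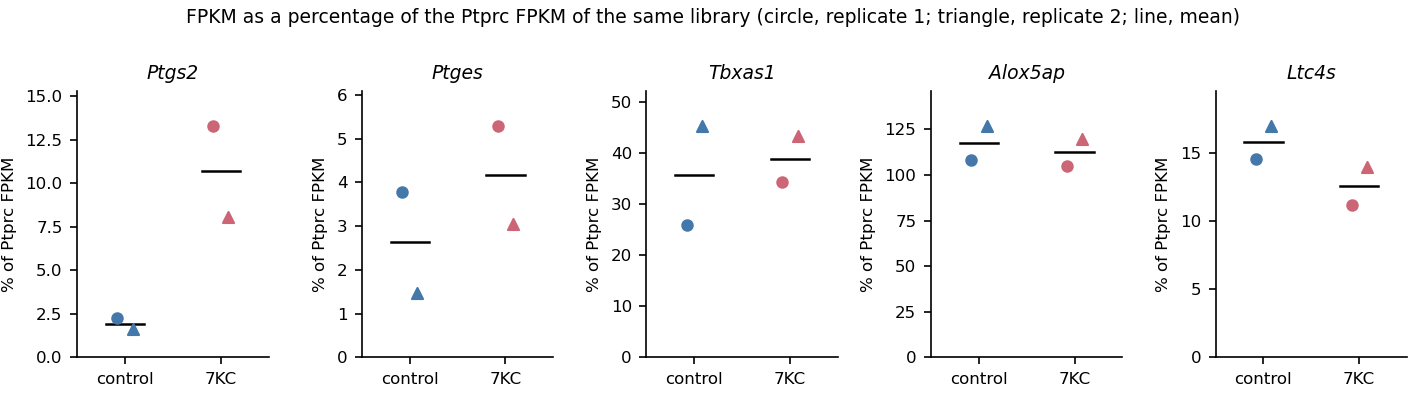
FPKM of 5 genes as a percentage of the Ptprc FPKM of the same library (linear axes from 0), with control libraries in blue, 7KC libraries in red, replicate 1 as a circle, replicate 2 as a triangle and the group mean as a line. Ptgs2 stands at 1.62% to 2.26% in the control group and 8.07% to 13.3% in the 7KC group, whereas Alox5ap, Tbxas1 and Ptges overlap.

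For 8 of the 10 genes the larger 7KC value was in replicate 2, as it was for 47.7% of all tested genes, and that library also had the larger sum of macrophage markers (1838 against 1146 FPKM). The 8 include Alox5, with 0 against 7 reads, and Lta4h, whose values lay close together. Ptgs2 and Ptges were larger in replicate 1. In the control group 7 of the 10 were larger in replicate 1, as were 53.9% of all tested genes. The part of cell numbers in these differences was not tested.

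The rest of the pathway was then read from lists set up by role, with 74 genes beside the members. All 74 symbols were found and 52 were tested. None was called at an adjusted limma p under 0.05. At an unadjusted p under 0.05, 8 of the 52 were higher and 4 were lower, near the 12.0% and 5.81% of all tested genes. The median log2 change of the 52 was 0.03, against -0.03 over all.

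Among 18 genes that release or activate arachidonic acid, 11 were tested, and 4 had both 7KC libraries above and 2 below both control libraries (25.1% and 27.4% of all tested genes), with a median log2 change of 0.14. Pla2g4a, the cytosolic phospholipase A2 that supplies arachidonic acid to both branches, was at 1.18 and 1.71 FPKM in the controls, against 4.17 and 4.57 FPKM under 7KC. The fitted log2 change was 1.33 (SE 0.18, limma adjusted p 0.0549), and it passed the threshold after rescaling each library to the same sum (adjusted p 0.0342). As a share of Ptprc, Pla2g4a overlapped between groups, at 14% and 30.3% against 26.8% and 22.2%, and it also overlapped relative to the macrophage sum (ratio of means 1.03). Relative to that sum without Lyz2, Pla2g4a lay higher in the 7KC group, at 1.17% and 1.76% against 2.76% and 1.8%. The same held relative to Csf1r (ratio of means 1.78) and Clec4f (3.14). Lpcat2, an acyltransferase that also makes platelet-activating factor, was at 3.13 and 1.89 against 6.47 and 11.0 FPKM (log2 change 1.60, SE 0.31, adjusted p 0.0934). Lpcat3, which puts arachidonic acid back into phospholipids and was the most abundant of the list, was at 44.7 and 52.6 against 45.1 and 42.0 FPKM and overlapped.

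Of 10 further prostanoid enzymes 8 were tested, and none had 7KC libraries above the control libraries, while 2 lay below them (25.1% and 27.4% of all tested genes), with a median log2 change of -0.16. Ptgr2, a prostaglandin reductase, was at 30 and 29.4 against 25.7 and 23.2 FPKM (log2 change -0.28, SE 0.11, limma adjusted p 0.286). Ptgis, the prostacyclin synthase, was at 1.09 and 0.795 against 0.942 and 2.29 FPKM (adjusted p 0.507), and Cbr1, a carbonyl reductase and the most abundant of these, at 95.7 and 61.6 against 70.7 and 70.0 FPKM.

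Among 11 prostanoid receptors and transporters 7 were tested, and 6 of them had both 7KC libraries above both control libraries (25.1% of all tested genes), with a median log2 change of 0.39. None passed the threshold. Ptger2 and Ptgir averaged 0.376 and 0.419 FPKM in the controls and reached the filter of 0.5 FPKM only through their 7KC values. The filter thus favoured these genes among the 6. Ptger4, the prostaglandin E2 receptor EP4, was at 0.589 and 0.612 FPKM in the controls, against 1.33 and 1.56 FPKM under 7KC (log2 change 0.82, SE 0.18, limma adjusted p 0.111). As a share of Ptprc, Ptger4 overlapped, at 6.94% and 10.8% against 8.56% and 7.56%. It also overlapped relative to the macrophage sum with and without Lyz2. Relative to Csf1r (ratio of means 1.4) and Clec4f (2.46) it lay higher in the 7KC group. Slco2a1, a prostaglandin uptake transporter and the most abundant of the list, was at 11.0 and 8.16 against 11.9 and 14.0 FPKM (adjusted p 0.297).

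The 6 other lipoxygenase genes, among them Alox12 and Alox15, all fell below the filter. No value exceeded 0.375 FPKM, which was that of Alox12 in control replicate 1, and Alox15 was at 0.0326 to 0.163 FPKM. Lipoxygenase transcripts were therefore barely detected in either group.

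Of 14 genes of leukotriene conversion and lipid mediator receptors 11 were tested, with 5 above and 2 below the control libraries (25.1% and 27.4% of all tested genes) and a median log2 change of 0.32. Fpr2, a formyl peptide receptor that also binds lipoxin A4, was at 6.80 and 3.65 FPKM in the controls, against 24.8 and 22.6 FPKM under 7KC. The fitted log2 change was 2.14 (SE 0.28, limma adjusted p 0.0523), and it passed with a pseudocount of 1 FPKM (adjusted p 0.0496). As a share of Ptprc, Fpr2 was at 80.2% and 64.7% against 160% and 110%, which did not overlap. Cyp4f18, which inactivates leukotriene B4, was at 2.1 and 1.26 against 4.77 and 10.7 FPKM (log2 change 1.84, SE 0.40, adjusted p 0.107). Mgst1, a microsomal glutathione transferase of hepatocytes and the most abundant gene of the list, was at 3466 and 4398 against 3647 and 2861 FPKM and overlapped.

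The cytochrome P450 arm, which makes epoxides and hydroxylated forms of arachidonic acid in hepatocytes, had no gene of 15 with 7KC libraries above the control libraries and 6 below (25.1% and 27.4% of all tested genes), with a median log2 change of -0.24. The 7 hepatocyte markers had 4 below and a median of -0.52, and their part in these values was not tested. Cyp4a12a was at 45.6 and 38.7 FPKM in the controls, against 22.2 and 29.0 FPKM under 7KC (log2 change -0.72, SE 0.17, limma adjusted p 0.128). Cyp2c29, the most abundant of the list, was at 800 and 1136 against 626 and 504 FPKM (log2 change -0.76, SE 0.23, adjusted p 0.192). Both belong to families with near-identical members, so their single values are uncertain.

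**Figure D4:**
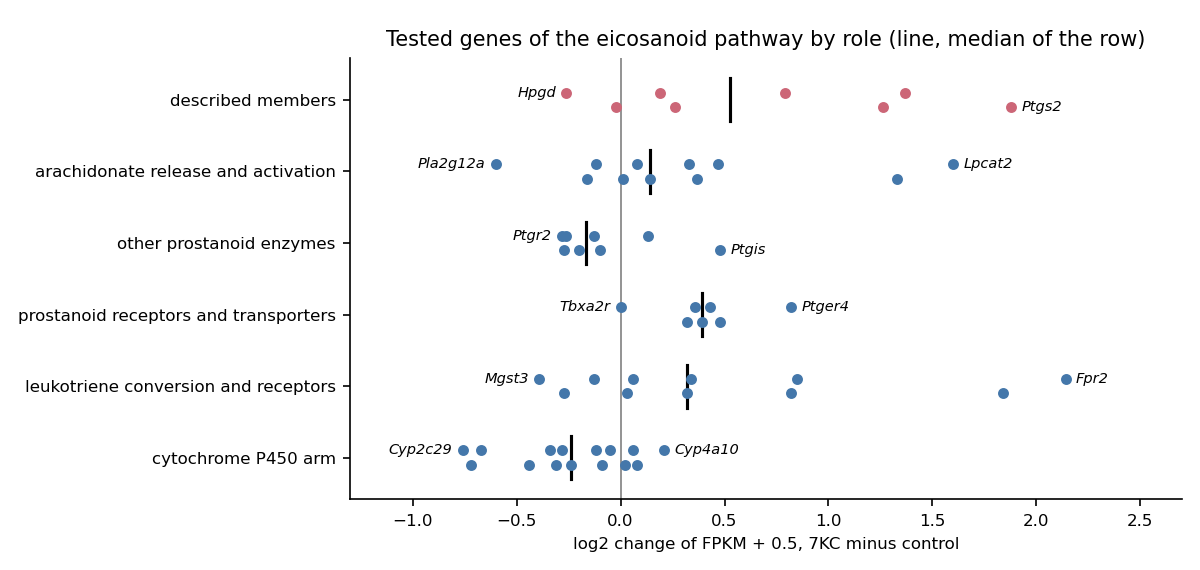
Log2 change of FPKM + 0.5 in the 7KC group relative to the control group (horizontal axis) for the 8 tested members in red and the 52 other tested pathway genes in blue, with 1 row per role, the row's median as a line and the outermost genes named. Row medians run from -0.24 in the cytochrome P450 arm to 0.53 in the members, and Fpr2 at 2.14 lies farthest to the right.

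The 5 tested genes closest to Ptgs2 in pattern over the 4 libraries, by the Euclidean distance of mean-centred log2(FPKM + 0.5), were Ifit2 (distance 0.102), Slamf8 (0.145), Ly6a (0.178), Gbp3 (0.184) and AA467197 (0.247). Ifit2, an interferon-induced gene, was at 1.67 and 1.52 FPKM in the controls, against 7.99 and 6.95 FPKM under 7KC. The closeness holds on this scale, which compresses Ptgs2: the ratio of means was 13.2 for Ptgs2 against 4.68 for Ifit2. With a pseudocount of 0.1 FPKM the log2 change of Ptgs2 was 3.05 instead of 1.88, and distances at other pseudocounts were not tested. The distance rests on 4 libraries and is a description.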

How the data were processed

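Liver RNA of 4 libraries, 2 per group by the sample labels, was sequenced as single-end reads from stranded mRNA libraries. The authors mapped reads to mm10 with TopHat and Bowtie2 and deposited FPKM per gene symbol. The study names Cufflinks, whereas the submitters' processing notes name TopHat2 2.1.1, Bowtie2 2.2.8, SAMtools 0.1.18 and Cuffdiff 2.2.1. The annotation, the use of strand and any rescaling between libraries are not given in the sources used here. Antisense genes share exons with Ptgs1, Tbxas1, Alox5ap and Ltc4s, so their reads can have been exchanged.

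Of 24346 genes, 12299 averaging 0.5 FPKM or more were tested on log2(FPKM + 0.5) with limma 3.58.1 in R 4.3.3 (group as the only term, prior variance following mean expression, 2 residual and 3.27 prior degrees of freedom). P-values were adjusted by Benjamini-Hochberg over all tested genes, with a threshold of 0.05. The fit was tested on simulated data whose spread followed only the trend with mean expression, which is gentler than the spread of single genes. Count models were not applied, since FPKM are normalized values.

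What 1 read is worth in each library was taken from the commonest ratio between low values, and total depth from 102 genes with 1 transcript in GENCODE M21, of which 57.8% lay within 3% of the median. Reads of low members are the whole numbers that match the steps to within 0.0029 reads, with the effective length left free around that of the longest transcript. Counting intervals cover counting error only.

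The members, lists and tests were chosen with earlier results of these data known. Named by rule are all members, in each role list the 2 genes with the smallest p and the most abundant gene, and the 5 genes closest to Ptgs2 in pattern. Outside that rule, Ptger2 and Ptgir were named for the filter and Alox12 and Alox15 as untested lipoxygenases. Ptgds and Akr1b3 were named for their values. Prxl2b was matched by its older name Fam213b, and the marker genes Ly6g and Trac were not matched. The alternatives were other pseudocounts, filters, scalings and variance models, a replicate block and leaving out each library. Protein sequences were not used here.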

Additional observations from a re-analysis of the deposited data

How the results depend on the processing

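The direction of Ptgs2, Tbxas1, Alox5ap, Ltc4s and Hpgd held in all 13 alternatives, but counts of calls moved widely. Against 59 genes higher, 3 lower, 1 member and 0 other pathway genes called by limma, rescaling to the same sum gave 398, 7, 2 (Ptgs2 and Alox5ap) and 2 (Fpr2 and Pla2g4a). A pseudocount of 1 FPKM gave 111 higher and called Fpr2 as 1 pathway gene, and a prior variance without a trend gave 39 higher and 1 lower. No filter gave 0 higher, 1 lower and 0 members (2634 genes with an unadjusted p under 0.05). A pseudocount of 0.1 FPKM, a mean of at least 1 FPKM and quantile normalization each left 0 members called, with adjusted p-values of 0.0538, 0.0506 and 0.0689 for Ptgs2, whose adjusted p ranged from 0.0199 to 0.242.

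Without 1 library, 2 (without 7KC replicate 2) to 389 (without control replicate 1) genes were higher, 1 to 52 lower, 0 to 1 members and 0 to 4 pathway genes were called. A lone library was then assumed to vary like the others. Without 1 library Lta4h, at -0.02 with all 4, ran from -0.11 (without 7KC replicate 2) to 0.069 (without 7KC replicate 1), with 0.050 without control replicate 1, and it was 0.18 after rescaling to the same sum. Ptgs1 ran from -0.048 to 0.42 and Hpgds from -0.25 to 0.78, each lowest without 7KC replicate 2 and highest without 7KC replicate 1. The cause of these shifts was not tested.

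The groups share replicate numbers, but nothing pairs the libraries, and the deviations of same-numbered libraries had a correlation of -0.14 over genes. With the replicate block 0 genes were higher, 0 lower and 0 members were called (1851 with an unadjusted p under 0.05). A crossed replicate block, chosen after seeing the data, gave 551 higher, 37 lower, 3 members and 5 pathway genes. At this depth Alox5, Ltc4s, Ptges and the control values of Ptgs2 rest on too few reads for small differences to show.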

Other observations

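Ptgds and Akr1b3, picked after seeing their values, were highest in control replicate 1. Ptgds, the lipocalin-type prostaglandin D synthase, was at 28.1 FPKM there, at 1.34 FPKM in control replicate 2 and at 3.92 and 7.67 FPKM in the 7KC libraries. Akr1b3, an aldose reductase gene, was listed at 1.41 FPKM in control replicate 1 and at 0.000426 to 0.000471 FPKM in the other 3 libraries. Those low values are far below the 0.0222 and 0.0275 FPKM of 1 Alox5 read in the control libraries. They are therefore not read as levels.

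Alox5ap transcript outnumbered Alox5 transcript per length in every library, with 7.19 to 24.7 FPKM against 0 to 0.193 FPKM. Alox5ap was 736% and 747% of Ltc4s in the controls, against 939% and 856% under 7KC. Ltc4s rested on about 8 and 5 reads in the controls and 9 and 15 under 7KC, too few to read a difference from these shares.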
